A study of Mus musculus with 768 samples.

Results

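The 7 genes followed here encode the machinery that presents antigen on MHC class II. They are H2-Aa, H2-Ab1, H2-Eb1, Cd74, H2-DMa, H2-DMb1 and Ciita, out of 23997 gene names, and all 7 were found in both count tables. The list was chosen by measured values: its genes had differed in these data between leukocytes and luminal cells and between the plates. The members' levels and differences are therefore given as descriptions, with no test. The cells came from inguinal mammary glands of C57BL/6 mice and were profiled with Smart-Seq2, a full-length single-cell RNA protocol without molecular identifiers. The N1ICD-EGFP plate held sorted GFP-positive cells of WAP-CRE; R26-N1ICD-EGFP mice, in which Cre under the milk protein promoter Wap switches on the active intracellular domain of Notch1 from the Rosa26 locus. The control plate held sorted tdTomato-positive cells of WAP-CRE; R26-tdTomato mice, which carry the same Cre and a fluorescent reporter in place of the Notch transgene. Both descriptions also carry the word "homo", without naming the allele it refers to. The design text dates the glands to after 3-4 months of lactation.

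Each plate had 384 wells, and a cell was kept if it reached 50000 reads and 1000 genes. The labels name no animal, so each genotype is 1 sample: no difference between plates has a replicate check, and the genotype, the animals and the plate cannot be told apart. Values are counts per 1000000 reads (CPM), either in a single cell or in reads summed over the cells of a class. Intervals are exact 95% intervals (Poisson for sums, Clopper-Pearson for shares) and cover counting error only. Cells with the luminal keratin Krt8 at 20 CPM or more and without the leukocyte genes Ptprc and Cd53 at that level were called luminal, 72.4% of kept cells in the N1ICD-EGFP and 87.1% in the control plate. Cells with Ptprc or Cd53 at 20 CPM or more and without Krt8 were called leukocytes, 49 in the N1ICD-EGFP and 19 in the control plate. The luminal label held for markers its rule did not use: the 7 pan-luminal markers other than Krt8 summed to 11699.5 CPM in luminal cells and 99.1 CPM in leukocytes of the N1ICD-EGFP plate, and to 12571 and 150.7 CPM in the control plate. The leukocyte label held as well, with the 6 pan-leukocyte markers other than Ptprc and Cd53 at 58.4 CPM in luminal cells and 10006.6 CPM in leukocytes of the N1ICD-EGFP plate, and at 114.8 and 8800.2 CPM in the control plate. At least 5 reads of eGFP were found in 75 N1ICD-EGFP luminal cells (36.6%) and in 0 of 49 leukocytes of that plate. No control cell had more than 2.

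MHC class II molecules are pairs of an alpha and a beta chain that carry peptides from the endosome to the cell surface, where CD4+ T cells read them. The invariant chain Cd74 escorts the pair to the endosome, and the H2-DM pair exchanges the last invariant chain fragment for a peptide. The coactivator Ciita switches the whole set on; it is active in B cells, macrophages and dendritic cells, and interferon gamma can induce it in epithelium.

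In RefSeq's GRCm38.p6 annotation, all 7 members are protein-coding genes, and 5 of them lie together in the mouse MHC on chromosome 17. H2-Ab1 (chr17:34263227-34269418) and H2-Aa (chr17:34282744-34287823) encode the beta and alpha chains of I-A, the class II molecule that C57BL/6 mice display. H2-Eb1 (chr17:34305867-34316674) encodes the I-E beta chain, whose alpha partner is a pseudogene in this strain. H2-DMa (chr17:34119693-34139101) and H2-DMb1 (chr17:34153191-34160229) encode the peptide exchange pair. Cd74 and Ciita lie on other chromosomes, Ciita at chr16:10480014-10531064.

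Class II genes on which Ciita acts have a known promoter type. There Ciita acts through factors of the RFX family, bound at a motif known as the X box, and NF-Y, bound at the Y box. The RefSeq promoter table held 4 of the 7 members. The 160 bases before the start of 3 of them are printed below, 5′ to 3′ on the gene's strand, with matches to the X box (core letters AACNGATG) and to the Y box core (GATTGG, or CCAATC where it lies on the other strand) in capitals.
H2-Eb1 (GRCm38.p6, chr17:34305707-34305866, plus strand): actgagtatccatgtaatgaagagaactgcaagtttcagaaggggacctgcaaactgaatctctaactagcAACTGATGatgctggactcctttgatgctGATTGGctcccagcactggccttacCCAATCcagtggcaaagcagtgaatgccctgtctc
H2-DMb1 (GRCm38.p6, chr17:34153031-34153190, plus strand): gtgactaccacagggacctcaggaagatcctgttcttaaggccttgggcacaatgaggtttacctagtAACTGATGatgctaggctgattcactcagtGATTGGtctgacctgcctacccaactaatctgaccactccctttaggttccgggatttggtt
H2-Aa (GRCm38.p6, chr17:34287824-34287983, minus strand): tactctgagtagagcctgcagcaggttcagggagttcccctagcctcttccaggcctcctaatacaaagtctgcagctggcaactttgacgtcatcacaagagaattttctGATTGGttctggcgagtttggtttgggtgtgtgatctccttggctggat
The H2-Eb1 window holds the X box core 89 to 82 bases before the start and Y box cores at 60 to 55 and 35 to 30 bases. The H2-DMb1 window holds the X box core at 92 to 85 and 1 Y box core at 62 to 57 bases. The H2-Aa window holds a Y box core at 49 to 44 bases and no run of letters that matches the X box core as written. Neither motif was matched before either start of H2-DMa in the table (windows chr17:34122672-34122831 and chr17:34125358-34125517). Both windows lie inside the span of the gene given above, and no other start of H2-DMa was searched. Searched on both strands, the Y box core was present in 3731 of 32851 windows of the same length (11.4%), the X box core in 400 (1.22%) and both in 37 (0.113%). The 2 motifs do not overlap in these windows. They were spelled after the sequences had been read, and a match describes letters, not binding.

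The class II genes were leukocyte genes in both plates. Leukocytes supplied 98.98% of the members' reads with 17.8% of all reads in the N1ICD-EGFP plate, and 88.03% of the members' reads with 5.25% of all reads in the control plate. Luminal cells gave 73.6% of all reads and 0.854% of the members' reads in the N1ICD-EGFP plate, and 89.998% and 2.14% in the control plate. A single control cell with neither Krt8 nor a leukocyte gene at 20 CPM carried most of the remainder: its classical chains summed to 46810 CPM beside 5 macrophage markers, with Ptprc at 5.83 CPM. The plot of the members by cell shows the separation of the classes.

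**Figure D1:**
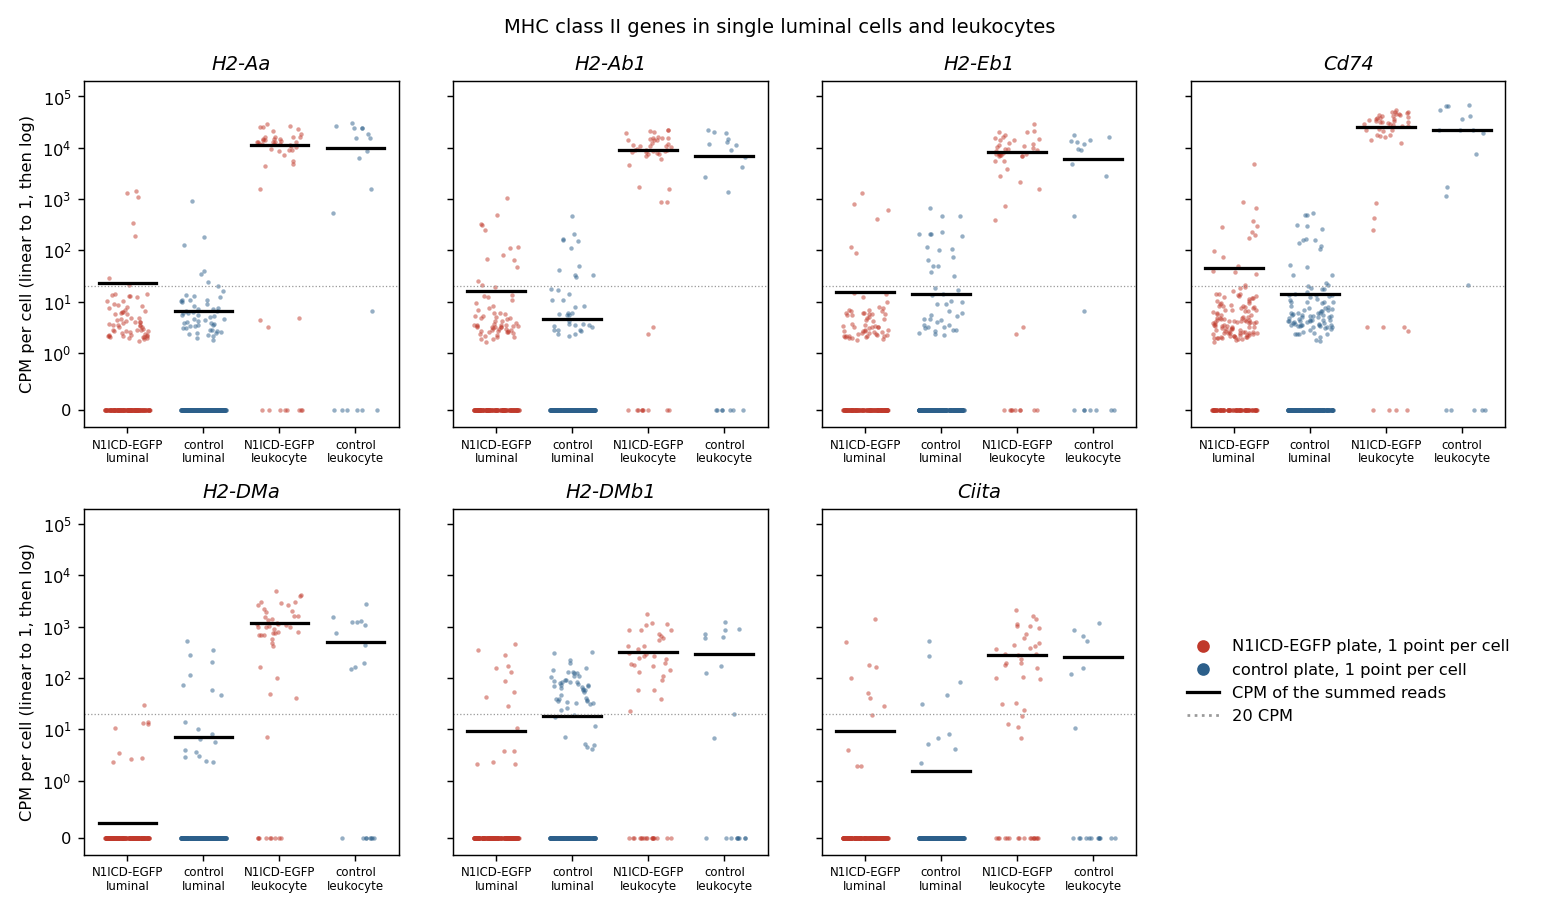
CPM of each member in each cell (vertical axis linear to 1 and logarithmic above), for luminal cells on the left and leukocytes on the right of each panel, with the N1ICD-EGFP plate in red and the control plate in blue. Black bars are the CPM of the summed reads, and the dotted line is 20 CPM; for Cd74 the bars stand at 44.8 and 14.1 CPM in luminal cells and at 25743 and 22210 CPM in leukocytes.

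Among the classical chains, H2-Aa stood at 23.1 CPM (22.05 to 24.3) in luminal cells against 11236 CPM (11186 to 11286) in leukocytes of the N1ICD-EGFP plate. In the control plate it stood at 6.47 CPM (5.89 to 7.08) in luminal cells and 10075 CPM (9980 to 10171) in leukocytes. These are log2 ratios of CPM with a pseudocount of 1 of -8.86 and -10.40 (luminal over leukocytes). H2-Ab1 had 15.9 CPM in luminal cells and 9175 CPM in leukocytes of the N1ICD-EGFP plate, a log2 ratio of -9.08. In the control plate H2-Ab1 had 4.50 CPM in luminal cells and 6971 CPM in leukocytes, a log2 ratio of -10.31. The I-E beta chain gene H2-Eb1, whose protein lacks its partner in this strain, followed the I-A genes in leukocytes. It had 15.2 CPM in luminal cells and 8419 CPM in leukocytes of the N1ICD-EGFP plate (-9.02), and 14.1 and 6154 CPM in the control plate (-8.67).

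Cd74, the invariant chain gene (chr18:60803849-60812652), had 44.8 CPM (43.3 to 46.4) in luminal cells against 25743 CPM in leukocytes of the N1ICD-EGFP plate, a log2 ratio of -9.13. In the control plate Cd74 had 14.1 CPM (13.2 to 14.97) in luminal cells against 22210 CPM in leukocytes, a log2 ratio of -10.52. The I-A chains and their escort thus stood at like distances between the classes in each plate.

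The peptide exchange genes and the transactivator showed smaller distances in most cases. H2-DMb1 reached 9.21 CPM in luminal cells and 323.3 CPM in leukocytes of the N1ICD-EGFP plate (-4.99), and 17.995 and 288.9 CPM in the control plate (-3.93). H2-DMa, its partner, had 0.251 CPM in luminal cells and 1197 CPM in leukocytes of the N1ICD-EGFP plate (-9.90). In the control plate H2-DMa had 7.18 CPM in luminal cells and 510.4 CPM in leukocytes (-5.97). The partner genes of the exchange pair were therefore unequally low in luminal cells, and the N1ICD-EGFP luminal value of H2-DMa rests on 18 reads. Ciita had 9.22 CPM in luminal cells and 277.02 CPM in leukocytes of the N1ICD-EGFP plate (-4.77), and 1.55 and 259.8 CPM in the control plate (-6.68). Part of the H2-DMb1 count may be shared with H2-DMb2, a near-identical neighbour, since how reads that match both were counted is not given in the sources used here.

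All 7 members were lower in luminal cells by at least 2-fold in both plates, beside 22% of 11871 genes in the N1ICD-EGFP plate and 23% of 11936 genes in the control plate that were lower by as much among genes at 5 CPM or more in either class. The list was chosen for this contrast, so nothing is read from that count. The median over the members was -9.02 in the N1ICD-EGFP and -8.67 in the control plate, beside medians over all those genes of 0.31 and 0.38. As a percentage of the leukocyte level, the luminal level had a median over the members of 0.180% in the N1ICD-EGFP plate (0.0210% for H2-DMa to 3.33% for Ciita) and of 0.229% in the control plate (0.0634% for Cd74 to 6.23% for H2-DMb1).

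Class I presentation, which nearly all nucleated cells use, was set against this. The 12 class I genes had a median luminal level of 30.9% of the leukocyte level in the N1ICD-EGFP and 36.5% in the control plate, and 7 of 12 were lower by at least 2-fold in each. In the control plate 1 was higher, the peptide transporter gene Tap2, with 204.7 CPM in luminal cells and 65.4 CPM in leukocytes. Among all genes at 5 CPM or more in either class, 22% were lower and 36% higher by as much in the N1ICD-EGFP plate. The control shares were 23% lower and 39.2% higher. The light chain gene B2m had 1083 CPM in luminal cells and 6582 CPM in leukocytes of the N1ICD-EGFP plate, and 1775 and 7388 CPM in the control plate. The other class II genes went the way of the members, with 4 of 5 lower by at least 2-fold in both plates. H2-DMb2 had 0.0140 CPM in luminal cells and 322.5 CPM in leukocytes of the N1ICD-EGFP plate. The fifth, H2-Ea-ps, the pseudogene of the missing I-E alpha chain, had no read in leukocytes of either plate.

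The factors that sit on class II promoters fell into 2 kinds. General factors were mostly present in both classes: Rfx5, a subunit of RFX, had 36.4 CPM in luminal cells and 14.9 CPM in leukocytes of the N1ICD-EGFP plate, and 28.6 and 31.03 CPM in the control plate. Nfyb, a subunit of NF-Y, had 57.6 CPM in luminal cells and 71.1 CPM in leukocytes of the N1ICD-EGFP plate, and 49.4 and 44.4 CPM in the control plate. The factors of blood cells were low in luminal cells: Irf8 had 0.321 CPM there and 875 CPM in leukocytes of the N1ICD-EGFP plate, and 0.439 and 184.8 CPM in the control plate. Spib had 0.642 CPM in luminal cells and 449 CPM in leukocytes of the N1ICD-EGFP plate, and 0.0275 and 181.03 CPM in the control plate. In all, 5 of 10 factors at 5 CPM or more in the N1ICD-EGFP plate and 5 of 11 in the control plate were lower by at least 2-fold in luminal cells, and 1 (Rfx5, in the N1ICD-EGFP plate) was higher. Among all genes at that level, 22% and 23% were lower and 36% and 39.2% higher, in that order of plates. A general factor was among the lower ones: Rfxank, another subunit of RFX, had 24.6 CPM in luminal cells and 64.2 CPM in leukocytes of the control plate.

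The endosomal partners of class II were split in the same manner, and the costimulatory ones were low in luminal cells. Ctss, the cathepsin that trims the invariant chain in professional antigen-presenting cells, had 2.09 CPM in luminal cells and 2639 CPM in leukocytes of the N1ICD-EGFP plate, and 2.70 and 3693 CPM in the control plate. Ctsd, a cathepsin of lysosomes in general, had 1081 CPM in luminal cells and 846 CPM in leukocytes of the N1ICD-EGFP plate, and 1219 and 1235 CPM in the control plate. Of the 8 endosomal genes, 5 were lower by at least 2-fold in luminal cells in each plate, and 1 was higher in the control plate: the cathepsin gene Ctsl, with 460.5 CPM in luminal cells and 48.7 CPM in leukocytes. Of the costimulation genes at 5 CPM or more, 6 of 6 in the N1ICD-EGFP and 7 of 7 in the control plate were lower by as much. Cd86, which gives T cells their second signal, had 0.0140 CPM in luminal cells and 128.9 CPM in leukocytes of the N1ICD-EGFP plate, and 0.0275 and 75.2 CPM in the control plate. Of the interferon gamma pathway genes at that level, 9 of 10 in the N1ICD-EGFP and 8 of 11 in the control plate were lower by at least 2-fold. These counts stand beside 22% and 23% of all genes lower, and 36% and 39.2% higher, in that order of plates. The receptor gene Ifngr1 had 174.7 CPM in luminal cells and 349.95 CPM in leukocytes of the N1ICD-EGFP plate, and 154.8 and 1081 CPM in the control plate.

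**Figure D2:**
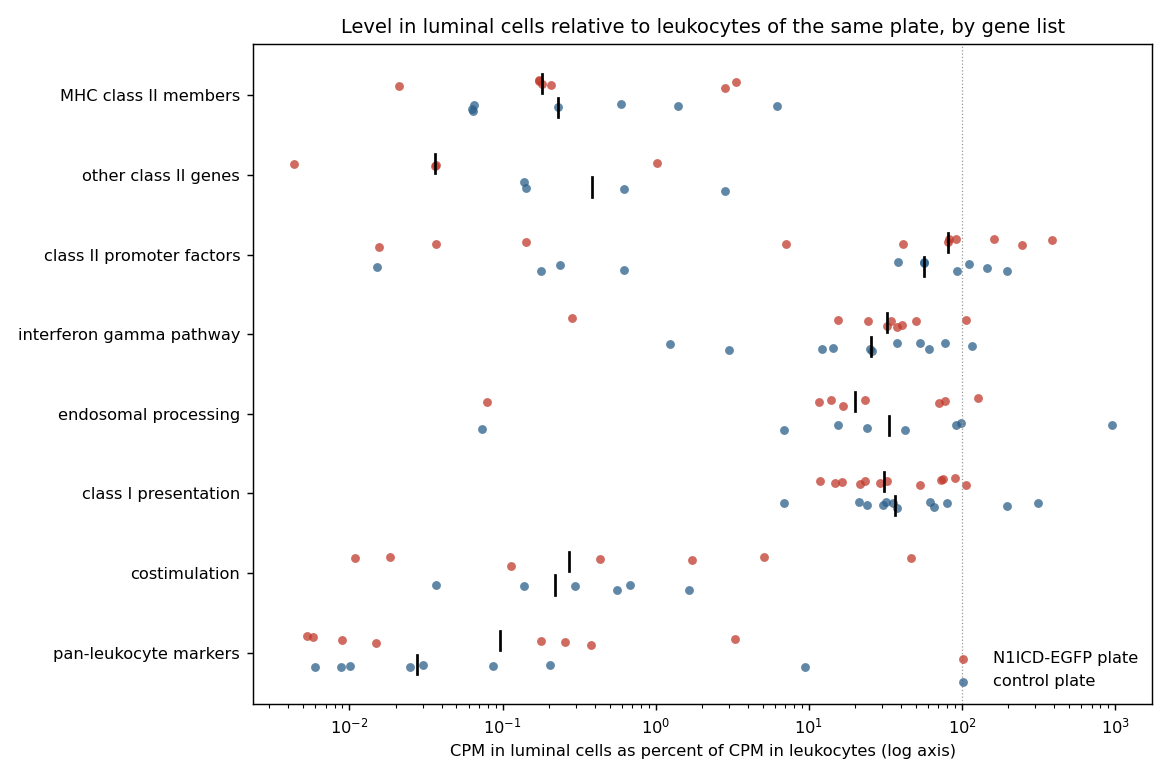
CPM in luminal cells as a percentage of CPM in leukocytes of the same plate (log axis), 1 point per gene and 1 line of points per gene list and plate, N1ICD-EGFP in red and control in blue, with black bars at the median. Genes with no leukocyte read are left out, genes at 0 in luminal cells count in the median only, and the dotted line is 100%; the members' medians are 0.180% and 0.229%.

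Within the leukocytes, class II followed the cell type. A type was given to a cell with at least 3 markers of that type at 20 CPM, and more than of any other. B cell-like cells made up 21 of 49 leukocytes in the N1ICD-EGFP plate (42.9%, 28.8 to 57.8) and 3 of 19 in the control plate (15.8%, 3.38 to 39.6). T cell-like cells were 9 of 49 and 7 of 19, macrophage-like cells 13 of 49 and 6 of 19, and dendritic cell-like cells 3 of 49 and 1 of 19, with 3 and 2 cells left unnamed. The summed CPM of H2-Aa, H2-Ab1 and H2-Eb1, called the classical chains below, had a lowest, median and highest value of 3260, 35671 and 43877 in the N1ICD-EGFP B cell-like cells. The 3 control B cell-like cells had 15604, 34297 and 36402 CPM. Every B cell-like cell of both plates thus carried classical chains, and the control values lay within the N1ICD-EGFP range.

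Macrophage-like cells had a lowest, median and highest value of 0, 33875 and 76464 CPM of the classical chains in the N1ICD-EGFP plate, and of 17351, 52478 and 64592 CPM in the control plate. The groups overlapped, and 1 of the 13 N1ICD-EGFP cells had no classical chain read. T cell-like cells were the low class: their median was 3.16 CPM in the N1ICD-EGFP and 0 in the control plate. The exceptions were 1 N1ICD-EGFP cell with 31980 CPM, which also had 4 macrophage markers beside 5 T cell markers, and 1 control cell with 1926 CPM. Dendritic cell-like cells were few, with 0, 724 and 30226 CPM in the 3 N1ICD-EGFP cells and 66510 CPM in the single control cell. That control cell was mixed: beside 4 dendritic cell markers it had 4 pan-luminal markers at 20 CPM or more, with Krt8 at 0. It also had 3 markers of luminal progenitor or secretory cells at that level.

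Ciita was not read in every cell that had classical chains, in any of the chain-rich types. It was read in most B cell-like cells of the N1ICD-EGFP plate, with 16 of 21 at 20 CPM or more and a median of 374.5 CPM. In macrophage-like cells it had a median of 192.2 CPM in the N1ICD-EGFP and 408 CPM in the control plate. It was listed at 0 in all 3 N1ICD-EGFP dendritic cell-like cells and in the control one, although 1 N1ICD-EGFP cell and the control cell of that type were rich in classical chains. Ciita was also at 0 in 4 of 13 N1ICD-EGFP and 2 of 6 control macrophage-like cells, and in 2 of 21 and 1 of 3 B cell-like cells. Of these cells, 1 N1ICD-EGFP macrophage-like cell had no classical chain read, and the rest had classical chains.

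**Figure D3:**
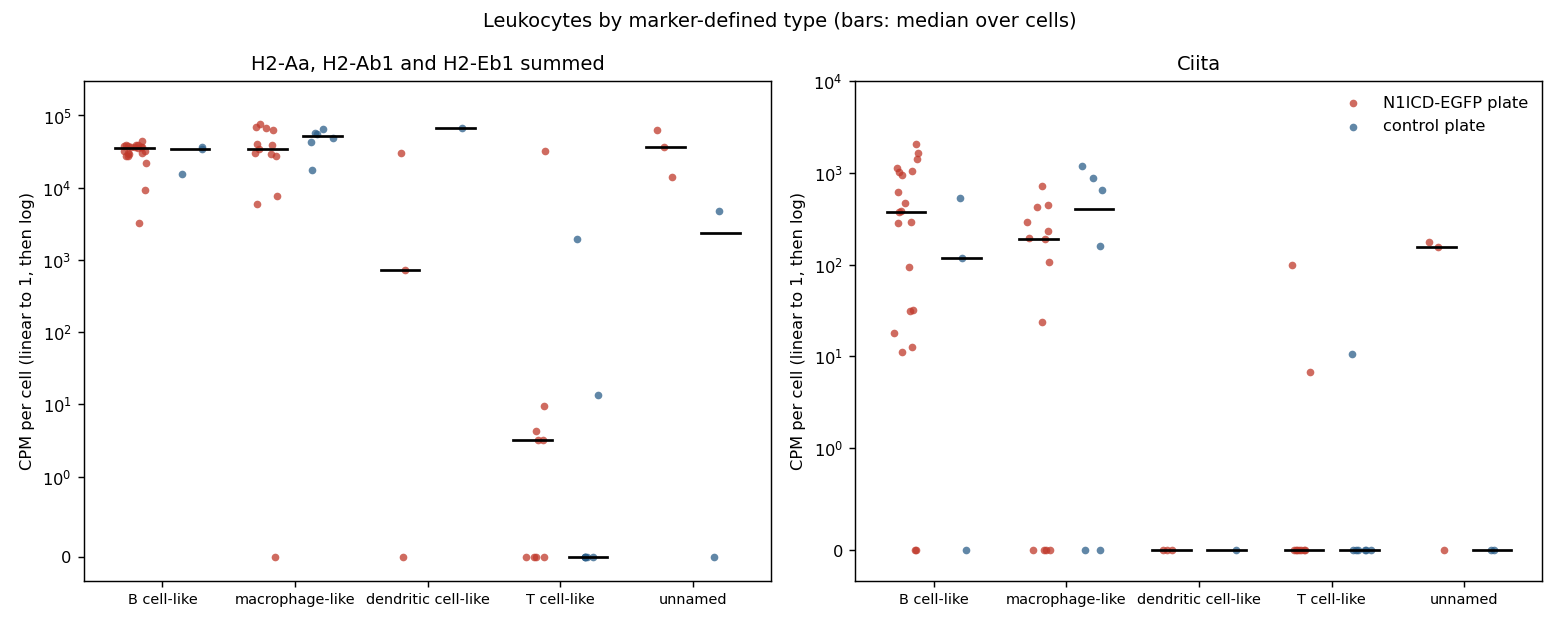
CPM per leukocyte (linear to 1, then logarithmic) of the summed classical chains on the left and of Ciita on the right, by marker-defined type, with the N1ICD-EGFP plate in red left of the control plate in blue. Bars are medians over cells; for the chains the B cell-like medians are 35671 and 34297 CPM and the T cell-like medians 3.16 and 0 CPM.

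Within a leukocyte the classical chains were mostly on or off as a set. All 3 classical chains were at 20 CPM or more in 37 of 49 N1ICD-EGFP leukocytes (75.5%, 61.1 to 86.7) and in 11 of 19 control leukocytes (57.9%, 33.5 to 79.7). Cells with only 1 or 2 of the chains at that level numbered 2 in the N1ICD-EGFP and 1 in the control plate. Cd74 was at 20 CPM or more in each cell that had all 3 chains, in both plates. At least 6 of the 7 members reached 20 CPM in 36 N1ICD-EGFP and 8 control leukocytes. Across the leukocytes, Pearson's r of log2(CPM + 1) between pairs of classical chains was 0.92 to 0.99 over 49 cells of the N1ICD-EGFP plate and 0.92 to 0.99 over 19 cells of the control plate. With the chains, H2-DMa had 0.76 to 0.79 and 0.77 to 0.84, and Ciita 0.66 to 0.67 and 0.51 to 0.59. The cells of a plate share its library preparation, and the values describe these cells only.

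In luminal cells the chains did not come as a set. All 3 were at 20 CPM or more in 1 N1ICD-EGFP cell (0.488%, 0.0123 to 2.69) and in 0 control cells, which allows a share of up to 1.26%. A single chain reached that level in 15 N1ICD-EGFP and 28 control cells, and 2 chains did in 4 and 3 cells. Pairs of classical chains had r of 0.18 to 0.25 over the N1ICD-EGFP cells and of 0.006 to 0.18 over the control cells. Ciita was at 20 CPM or more in 8 N1ICD-EGFP luminal cells, of which 1 had a chain at that level, and in 5 control luminal cells, of which 1 did.

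**Figure D4:**
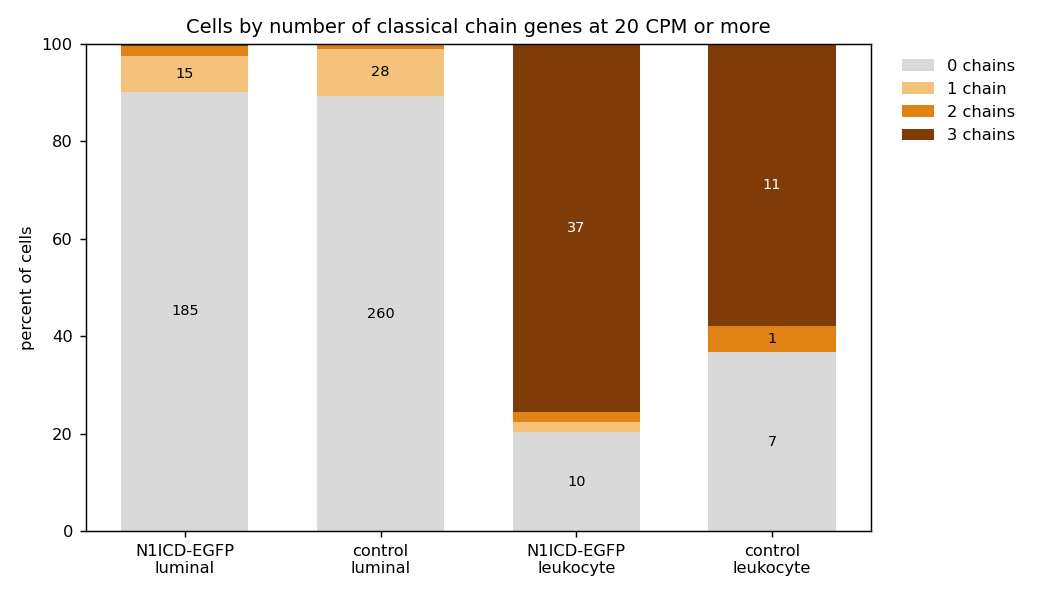
Percent of cells (vertical axis) with 0, 1, 2 or 3 of the classical chain genes H2-Aa, H2-Ab1 and H2-Eb1 at 20 CPM or more, for luminal cells and leukocytes of the N1ICD-EGFP and control plates. Numbers in the bars are cells; 37 of 49 and 11 of 19 leukocytes have 3 chains, against 1 and 0 luminal cells.

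The genes most like the classical chains across all kept cells were genes of leukocytes. Among 7489 genes at 20 CPM or more in both plates, the 8 with the highest r in the plate where it was lower were Ly86 (0.77), Cybb (0.71), Plek (0.66), Laptm5 (0.65), H2-Ob (0.63), Cd52 (0.63), Il10ra (0.60) and Hcls1 (0.60). Over luminal cells alone the highest such value among 7202 genes was 0.20, for Pvrl2, which in sparse counts is too weak to describe a pattern. Over leukocytes alone, a comparison added after the data were seen, it was 0.89, for Mir5107, a microRNA gene that lies within Cd74 in RefSeq.

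Most luminal cells had few class II reads or none. The median CPM per luminal cell was 0 for every member in both plates but for Cd74 in the N1ICD-EGFP plate, at 2.25 CPM. Classical chains were unread in 36.1% of N1ICD-EGFP and in 63.6% of control luminal cells, and present below 20 CPM in 51.7% and 25.1%. Cells with a read of H2-Aa were 32.7% of N1ICD-EGFP and 18.9% of control luminal cells, and 10.7% and 6.87% once each cell was thinned to 50000 reads. For Cd74 these shares were 58.5% and 33.7%, and 19.02% and 13.7% after thinning. Depth moved with the unthinned shares: the median was 360907 reads in N1ICD-EGFP and 248156 reads in control luminal cells. Low levels were also present in cells that should lack the genes: 4 of the 9 T cell-like N1ICD-EGFP cells had classical chains above 0 and under 20 CPM. In 71 wells of the N1ICD-EGFP plate with under 5000 reads, which held too little RNA to be kept, the members summed to 3082 CPM. In 5 such control wells they had 2 of 4518 reads, or 442.7 CPM. That is under the 664 CPM that a count of 0 allows there, so no level is read from it. The part of free RNA in the low luminal values was not tested.

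The classical chains together reached 20 CPM in 25 N1ICD-EGFP luminal cells (12.2%, 8.05 to 17.5) and in 33 control luminal cells (11.3%, 7.94 to 15.6). In leukocytes that held for 39 of 49 cells (79.6%) of the N1ICD-EGFP and 12 of 19 (63.2%) of the control plate. The luminal intervals of the plates overlapped. At a threshold of 100 CPM the luminal shares were 6.83% in the N1ICD-EGFP and 6.19% in the control plate, and after thinning, where 20 CPM is 1 read, 23.9% and 16.8%. Among luminal cells with under 2 of the hormone-sensing markers Esr1, Pgr, Foxa1 and Prlr, the shares at 20 CPM were 12.2% (8.01 to 17.7) in the N1ICD-EGFP and 6.51% (3.61 to 10.7) in the control plate, and among control cells with at least 2 it was 25% (15.8 to 36.3).

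The luminal cells highest in the classical chains were unlike each other. The cell with the highest classical chains, in the N1ICD-EGFP plate, had 3492 CPM of them and 4814 CPM of Cd74, with 5 macrophage markers at 20 CPM or more, Krt8 at 313.2 CPM and no read of Ptprc or Cd53. The next 2 N1ICD-EGFP cells had 2065 and 1333 CPM of the chains, with Cd74 at 74.7 and 20.7 CPM, and 0 and 1 macrophage markers. The highest control cell had 1609 CPM, made of 929 CPM of H2-Aa and 680 CPM of H2-Eb1 with H2-Ab1 unread, and Cd74 at 524 CPM. Thus of these 4 cells 1 held every chain. The 3 highest cells for a gene supplied 78.5% of H2-Aa reads and 71.7% of Cd74 reads of N1ICD-EGFP luminal cells, and 81.5% and 46.004% of those of control luminal cells. For Ciita they supplied 86.5% and 84.96%.

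Between the plates, luminal cells of N1ICD-EGFP mice had higher H2-Aa, H2-Ab1, Cd74 and Ciita, and lower H2-DMa, than luminal cells of control mice. Those are 4 of 7 members higher by at least 2-fold, beside 9.7% of 11225 genes, and 1 of 7 lower, beside 10.8%. H2-Aa had 23.1 CPM in N1ICD-EGFP and 6.47 CPM in control luminal cells (log2 ratio 1.69), with single cells up to 1445 and 929 CPM. H2-Ab1 had 15.9 and 4.50 CPM (1.62), with single cells up to 1058 and 466 CPM. In both genes the ranges of the plates overlapped, since most cells of each were at 0. Cd74 had 44.8 CPM in N1ICD-EGFP and 14.1 CPM in control luminal cells (1.60), and Ciita had 9.22 and 1.55 CPM (2.003). For Ciita 1 N1ICD-EGFP cell with 1436 CPM held 60.7% of the gene's reads. H2-Eb1 had 15.2 CPM in N1ICD-EGFP and 14.1 CPM in control luminal cells (0.10), with -1.34 in well columns 1 to 12 and 1.53 in columns 13 to 24.

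Of the exchange genes, H2-DMa was lower in N1ICD-EGFP luminal cells and H2-DMb1 was not past 2-fold. H2-DMa had 0.251 CPM (0.149 to 0.397) in N1ICD-EGFP and 7.18 CPM (6.58 to 7.82) in control luminal cells, a log2 ratio of -2.71. It reached 20 CPM in 1 N1ICD-EGFP and 8 control luminal cells, and the 3 highest control cells held 70.6% of the control reads. H2-DMb1 had 9.21 CPM in N1ICD-EGFP and 17.995 CPM in control luminal cells (-0.90). It reached 20 CPM in 4.88% of N1ICD-EGFP cells and 15.1% of control cells, and after thinning was read in 5.37% and 15.5%. Of the 7 members its reads were the most evenly spread over luminal cells, with 49.7% of the N1ICD-EGFP and 23.8% of the control reads in the top 3 cells.

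The members summed to 117.8 CPM in N1ICD-EGFP and 65.9 CPM in control luminal cells, a log2 ratio of 0.83, but the ratio rested on few cells. Without the 3 luminal cells of each plate highest in the summed members, the sums were 60.1 and 51.4 CPM (0.22). In cells of well columns 1 to 12 the ratio was -0.01, and in those of columns 13 to 24 it was 1.63. H2-Aa (1.54, 2.30 and 2.44) and H2-Ab1 (1.29, 2.20 and 1.18) were past 2-fold in columns 1 to 12, in columns 13 to 24 and without the highest cells. Cd74 was not (-0.80, 2.50 and 0.91), and Ciita fell short without the highest cells (1.18, 2.48 and 0.86). With a pseudocount of 10 in place of 1, the log2 ratios of H2-Ab1 (0.84), Ciita (0.73) and H2-DMa (-0.74) were no longer past 2-fold. Among luminal cells without any macrophage, B cell or T cell marker at 20 CPM, the summed ratio was 0.53 and that of Cd74 1.26.

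Markers of other cells were present in the luminal class at unequal levels. The 8 B cell markers summed to 1.84 CPM in N1ICD-EGFP and 2.37 CPM in control luminal cells (Pax5 at 0 in the N1ICD-EGFP cells), and the 7 T cell markers found in the files to 2.75 and 2.47 CPM. The 7 macrophage markers found summed to 72.3 and 95.9 CPM, and the 6 basal cell markers to 307.6 and 465.4 CPM. Of the macrophage markers, the complement gene C1qa, which defines tissue macrophages, had 1.66 CPM in N1ICD-EGFP and 1.13 CPM in control luminal cells, with 94.1% and 96.3% of its reads in 3 cells. Their part in the luminal class II levels was not tested.

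Within the N1ICD-EGFP plate, the share of luminal cells with classical chains was alike with and without at least 5 eGFP reads, while levels of some members were not. Median depth was 419916 reads in the cells with at least 5 eGFP reads and 330171 reads in the others. The classical chains reached 20 CPM in 11 of 75 cells with at least 5 eGFP reads (14.7%, 7.56 to 24.7) and in 14 of 130 with fewer (10.8%, 6.01 to 17.4). H2-Aa had 21.99 CPM in the cells with eGFP reads and 23.97 CPM in those with fewer. Cd74 had 25.9 and 58.3 CPM in that order of groups, and the cell with 4814 CPM of Cd74 is among those with fewer eGFP reads. H2-DMb1 had 3.79 CPM with and 13.1 CPM without at least 5 eGFP reads, and Ciita 3.99 and 12.95 CPM. Without the cell highest in the gene in each group, Cd74 had 13.9 and 16.6 CPM, Ciita 0.955 and 3.39 CPM, and H2-Aa 4.79 and 14.8 CPM. The log2 ratio of H2-Eb1, cells with at least 5 eGFP reads over the others, was -2.06, and -1.73 without those highest cells. For H2-DMb1 it was -1.56 and -2.53, for H2-Ab1 -0.05 and 0.54, and for H2-DMa -0.03 and -0.28.

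The class II reads of control luminal cells moved with hormone-sensing markers for some of the members. Luminal cells that sense hormones express the estrogen and progesterone receptor genes Esr1 and Pgr, the factor Foxa1 and the prolactin receptor gene Prlr. At least 2 of these 4 were at 20 CPM or more in 9 N1ICD-EGFP and 76 control luminal cells, a split made after the data were seen. In the control plate, H2-DMb1 reached 20 CPM in 28 of the 76 cells with these markers (36.8%) and in 16 of the others (7.44%). Its summed level was 35.9 CPM with and 9.33 CPM without the markers. H2-Eb1 reached 20 CPM in 14 of 76 (18.4%) and in 3 of the others (1.40%), at 29.3 and 6.70 CPM. H2-DMb1 and H2-Eb1 were thus more often present where hormone-sensing markers were present.

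H2-Ab1 and Cd74 had lower summed levels with the markers in control luminal cells, at 1.72 CPM with and 5.85 CPM without them for H2-Ab1 and 12.2 and 14.999 CPM for Cd74. H2-Aa had 2.90 CPM with and 8.19 CPM without the markers, but 1 cell held 78.1% of its reads in the cells without them. Without the cell highest in the gene in each group, H2-Aa had 1.49 and 1.81 CPM, Cd74 3.59 and 11.5 CPM and H2-DMa 5.28 and 1.68 CPM. H2-Aa reached 20 CPM in 3 cells with and 3 cells without the markers (3.95% and 1.40%). H2-DMa in all such cells had 15.6 CPM with and 3.08 CPM without the markers, and reached 20 CPM in 5 and 3 cells.

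By number of markers, H2-DMb1 was at 20 CPM or more in 7.20% of control luminal cells with none, 7.78% of 90 with 1, 30.8% of 13 with 2, 45.2% of 31 with 3 and 31.3% of 32 with 4. H2-Eb1 was in 0.800%, 2.22%, 7.69%, 12.9% and 28.1% of the same cells. The shares step up between 1 and 2 markers for H2-DMb1 and go up with each added marker for H2-Eb1. The H2-Eb1 shares rest on 1, 2, 1, 4 and 9 cells. Once thinned to 50000 reads, H2-Eb1 was read in 4%, 4.44%, 15.4%, 12.9% and 31.25% of these cells, so its rise was not steady at equal depth. Depth moved with the split: cells with the markers had a median of 314848 reads and 5333.5 genes, the others 222182 reads and 3421 genes. After thinning to 50000 reads, H2-DMb1 was read in 38.2% of the cells with the markers and in 7.44% of the others, and H2-Eb1 in 21.1% and 4.19%. Without gene-rich cells that could be doublets, H2-DMb1 was at 20 CPM in 15 of 41 cells (36.6%) with the markers and 16 of the others (7.58%), and H2-Eb1 in 5 of 41 (12.2%) and 3 of the others (1.42%). In well columns 1 to 12 the H2-DMb1 shares were 42.9% and 6.60%, and in columns 13 to 24 29.4% and 8.26%.

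**Figure D5:**
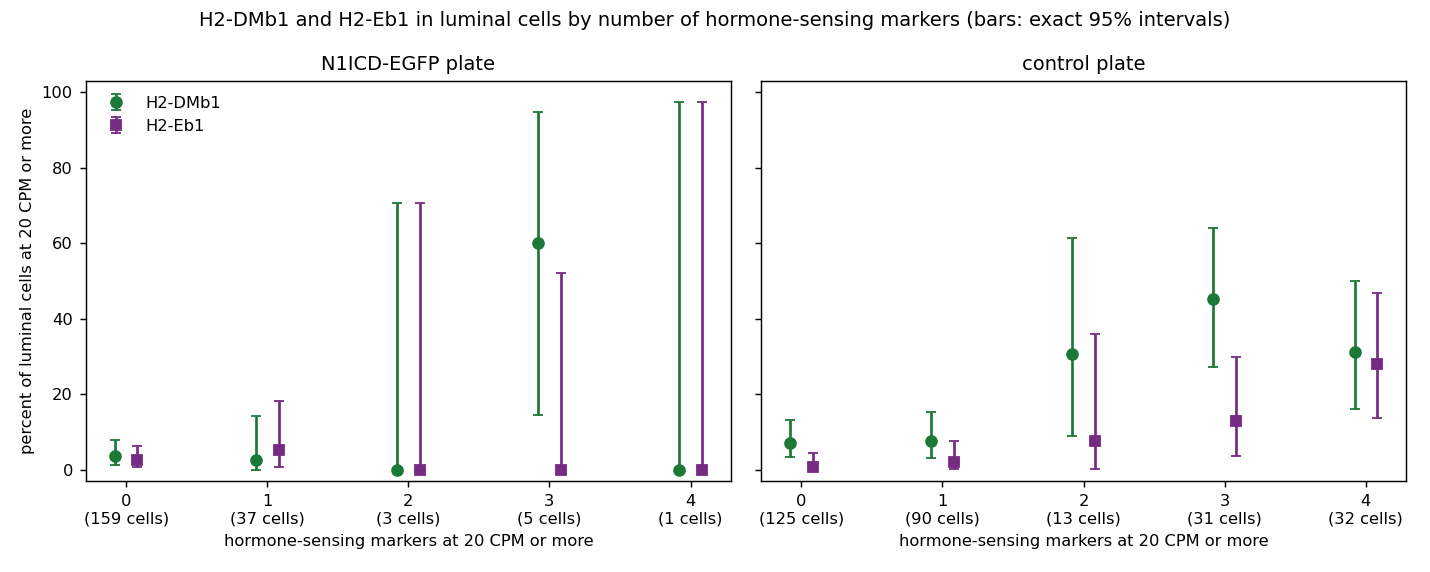
Percent of luminal cells with H2-DMb1 (green circles) and H2-Eb1 (purple squares) at 20 CPM or more, by number of the hormone-sensing markers Esr1, Pgr, Foxa1 and Prlr at that level, for the N1ICD-EGFP plate on the left and the control plate on the right. Bars are exact 95% intervals for counting error; in control cells H2-DMb1 stands at 7.20% with no marker and 45.2% with 3.

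The N1ICD-EGFP plate had few such cells. H2-DMb1 reached 20 CPM in 3 of the 9 with at least 2 markers and in 7 of the others (3.57%), and H2-Eb1 in 0 of 9 and 6 of the others (3.06%). Hormone-sensing markers summed to 268.4 CPM in N1ICD-EGFP and 3171 CPM in control luminal cells. So the plate with fewer hormone-sensing cells is also the one with less H2-DMb1 in luminal cells, and the part of cell makeup in that difference was not tested. In cells with under 2 markers, H2-DMb1 had 8.61 CPM in the N1ICD-EGFP and 9.33 CPM in the control plate. It reached 20 CPM in 3.57% of those N1ICD-EGFP cells and in 7.44% of those control cells.

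In leukocytes, the plates were nearer to each other. Of the 7 members, 1 was higher in N1ICD-EGFP leukocytes by at least 2-fold, beside 29.5% of 10678 genes, and 0 were lower, beside 26.3%. H2-DMa had 1197 CPM (1181 to 1214) in N1ICD-EGFP and 510 CPM (489 to 532) in control leukocytes, a log2 ratio of 1.23. Its lowest, median and highest values were 0, 922 and 4916 CPM over 49 N1ICD-EGFP leukocytes, and 0, 163.6 and 2747.5 CPM over 19 control leukocytes. The ranges overlapped. The other 6 had log2 ratios of 0.09 (Ciita) to 0.45 (H2-Eb1). Per cell, Cd74 had a lowest, median and highest value of 0, 28751 and 53478 CPM in N1ICD-EGFP and of 0, 19029 and 66948 CPM in control leukocytes.

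The makeup of the leukocytes differed between the plates. B cell markers summed to 5587 CPM in N1ICD-EGFP and 1553 CPM in control leukocytes, T cell markers to 898 and 2126 CPM and macrophage markers to 5212 and 3562 CPM. Within macrophage-like cells, 13 in the N1ICD-EGFP and 6 in the control plate, H2-DMa had 903 and 849 CPM. There Cd74 had 30024 CPM in N1ICD-EGFP and 51968 CPM in control cells, H2-Aa 15031 and 21892 CPM, and Ciita 201.4 and 615 CPM. Ciita was the 1 member past 2-fold in these cells, lower in N1ICD-EGFP (log2 ratio -1.61), beside 33.7% of 9278 genes that were lower and 33.6% that were higher by as much. B cell-like cells had 1745 CPM of H2-DMa in the N1ICD-EGFP plate and 1382 CPM in the 3 control cells, too few for a comparison. Other class II genes stood beside H2-DMa in the leukocytes as a whole: H2-DMb2 had 322.5 CPM in N1ICD-EGFP and 70.1 CPM in control leukocytes, and H2-Oa, which restrains the exchange pair in B cells, 240.7 and 93.1 CPM.

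Over all kept cells of a plate, the members summed to 10148 CPM in the N1ICD-EGFP and 2774 CPM in the control plate (log2 ratio 1.87), and 6 of 7 were higher by at least 2-fold, beside 12.2% of 12021 genes, and 0 were lower, beside 9.11%. Leukocytes were 17.3% of kept cells (13.1 to 22.2) in the N1ICD-EGFP plate and 5.69% (3.46 to 8.74) in the control plate. Within leukocytes the summed members had 56370 CPM in the N1ICD-EGFP and 46470 CPM in the control plate (0.28), and within luminal cells 117.8 and 65.9 CPM (0.83).

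For the other genes of the pathway in luminal cells, the counts past 2-fold between the plates stand beside 9.7% of 11225 genes higher and 10.8% lower. Most genes of any kind were thus within 2-fold, and nothing about the pathway is read from these counts. Of 12 class I genes, 0 passed 2-fold in either direction (median log2 ratio -0.18; B2m 1083 CPM in N1ICD-EGFP and 1775 CPM in control, H2-K1 1919 and 1619 CPM). Of 8 promoter factors at 5 CPM or more, 2 were higher (Rfxank with 52.1 and 24.6 CPM, and Irf4 with 9.84 and 0.755 CPM) and 1 lower (Nfya with 3.14 and 8.35 CPM). Of 7 interferon gamma pathway genes at that level, only Jak2, the receptor's kinase, passed 2-fold, with 39.4 CPM in N1ICD-EGFP and 103.4 CPM in control luminal cells. The interferon gamma transcript Ifng had no read in luminal cells of either plate. Of 7 endosomal genes 0 passed 2-fold, and none of the 8 costimulation genes or the 5 other class II genes reached 5 CPM in luminal cells of either plate.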

How the data were processed

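Smart-Seq2 libraries of single cells, sorted into 2 plates and sequenced on an Illumina instrument, were analysed from the authors' deposited tables of raw read counts per gene and well. STAR and the mm10 build are named in the submitters' processing notes. For the counting tool, its annotation and strand, no statement was found: not given in the sources used here. Entries sharing 1 gene name, 492 beyond the first of each, were summed, which left 23997 names with eGFP kept apart. Cells under 50000 reads or 1000 genes were left out, which kept 283 N1ICD-EGFP and 334 control cells; 205 and 291 of these were luminal. Of the luminal cells, 9 and 76 had at least 2 hormone-sensing markers, and 196 and 215 had fewer. Median depth was 360907 and 248156 reads in luminal cells and 325871 and 203750 reads in leukocytes. Reads were summed over the cells of a class and scaled to counts per 1000000 reads (CPM), and ratios are log2 with a pseudocount of 1. Genes at 5 CPM or more in either group formed the background for 2-fold differences. With 1 sample per group no p-value was made. Doublets were treated only in an alternative that left out cells more than 3 median absolute deviations above the plate's median number of genes. The calculation was tested on simulated data.

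The members and gene lists were chosen with earlier results of these data known. Pathway genes were to be named by the size of their ratio, up to 3 in each direction, among those at 20 CPM and read in 20% of cells; others named were chosen after their values were seen. The split by hormone-sensing markers, its alternatives, those of single members in leukocytes and the values without the highest cell of a split were added after the data were seen. Levels in CPM are not compared between genes, since lengths were not used. Ratios and shares of single genes are set side by side, and sums over several genes take no account of length. Of 137 listed genes, 2 were not found under the names used. The values of some listed genes are not reported here. Analyses ran in Python 3.11.15 with numpy 2.4.6, pandas 2.3.3, scipy 1.17.1 and matplotlib 3.10.9.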

Additional observations from a re-analysis of the deposited data

Results flagged for a closer look

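Class II reads were also present in wells that the cell filter left out, which no comparison above uses. The wells left out of the N1ICD-EGFP plate held a median of 665 reads, and the members summed to 1547 CPM in them. Of these, 71 wells had under 5000 reads, and the members summed to 3082 CPM over 53216 reads of all genes, above the 56.4 CPM that a count of 0 allows. The 50 wells left out of the control plate held a median of 28772 reads, and the members summed to 3882 CPM. The source of the reads in these wells was not tested.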

How the results depend on the processing

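No paired analysis was possible because each group is 1 plate and no test was made. The log2 ratios of the summed members were -8.89 (luminal over leukocytes, N1ICD-EGFP), -9.44 (the same, control), 0.83 (N1ICD-EGFP over control, luminal) and 0.28 (N1ICD-EGFP over control, leukocytes). The first 2 stayed past 2-fold and kept their direction, summed and for each of the 7 members, in all 16 alternatives. The values that moved past counting error follow in that order of ratios, with the cause not tested. Leaving out the 3 cells of each group highest in the summed members gave -9.69, -9.22, 0.22 and 0.68. Well columns 1 to 12 gave -9.62 for the first, reversed the third to -0.0062 and gave 0.14 for the fourth, with Cd74 between luminal classes reversed to -0.80; columns 13 to 24 gave -8.32, -9.32, 1.63 and 0.64. Luminal cells without macrophage, B cell or T cell markers gave -9.60, -9.84 and 0.53 for the first 3. Thinning gave -8.87, -9.63, 0.97 and 0.21, the mean of per-cell CPM -8.80, -9.60, 1.01 and 0.21, and median-of-ratios scaling -9.01, -9.54, 0.77 and 0.24. A pseudocount of 10 gave -8.79, -9.26 and 0.75, and leaving out possible doublets -8.73, -9.63 and 1.17, for the first 3. Any read of Ptprc or Cd53 gave -8.80 for the first, 0.78 for the third and 0.14 for the fourth, and 50 CPM of them 0.26 for the fourth. Krt8 at 5 CPM gave -9.20, 0.76 and 0.44 for the last 3, Krt8 at 100 CPM -9.23 for the second and 0.48 for the fourth, and Krt8 with Krt18 and Epcam -9.28 for the second. The looser cell filter gave -9.40 for the second and 0.30 for the fourth, and the stricter one -8.86 for the first. The luminal shares with classical chains, 12.2% in N1ICD-EGFP and 11.3% in control, were 6.83% and 6.19% at 100 CPM, and 23.9% and 16.8% after thinning, where 20 CPM is 1 read. Of 484 alternative values of single members, most moved past counting error, and 1 of a ratio past 2-fold reversed (Cd74, above). H2-Eb1 in luminal cells and H2-Aa, H2-DMb1 and Ciita in leukocytes, which were not past 2-fold, changed sign between plates under at least 1 alternative, as did H2-Ab1 between luminal cells with and without eGFP reads. H2-DMb1 in control luminal cells was at 29.4% to 42.9% with hormone-sensing markers and 6.60% to 8.38% without, over the alternatives run. The values are limited by 1 plate per genotype, by the number of leukocytes, 49 and 19, and by the few luminal cells that hold most of the class II reads.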
